A study of Mus musculus with 6 samples.

Results

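p65 binding was compared between epidermal cells of adult mice and of aged mice in which IL-17A and IL-17F had been blocked, to ask which adult sites were still without a peak after the blockade. The members were all 8525 peaks of the adult list and all 6014 peaks called after the blockade (aged/anti-IL-17A/F), 14539 of the 18708 peaks in the 3 lists of the series. A peak was shared when it overlapped a peak of the other list by at least 1 bp. The comparison was repeated with the strongest 6014 peaks of each list, ranked by −log10 q, the peak caller's measure of confidence, because the adult list is longer.

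The series holds p65 chromatin immunoprecipitation with sequencing (ChIP–seq) of epidermal cells from these groups and from aged mice given control IgG, with an input library for each. All mice were C57bl/6J. The adult group was untreated, and adult mice in the study were 17 to 25 weeks old. The aged/anti-IL-17A/F group received blocking antibodies against IL-17A and IL-17F by intraperitoneal injection for 12 weeks from 73 weeks of age, so that age, antibody and injection cannot be told apart in a comparison with the adult group. Epidermal cells were released with trypsin and comprise every cell type of that suspension. Reads of 4 mice were pooled before peaks were called, and each condition therefore gave 1 list, with no spread between animals and no test between conditions. Intervals below are 95% Wilson intervals, which take peaks as independent, also peaks of the same gene, and cover counting error only.

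IL-17A and IL-17F are cytokines released by lymphocytes of the skin, and they bind a receptor of keratinocytes, the main cells of the epidermis. The receptor recruits the adaptor Act1 and TRAF6 and leads to the activation of NF-κB, a family of transcription factors of which p65, encoded by Rela, is a member. Inactive p65 is held in the cytoplasm by IκB proteins, whose genes are among its own targets.

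Every one of the 8525 peaks in the list labelled adult carried a name beginning with Treated, as did all 6014 peaks in the list of the blocked group. The lists themselves differed in length and position, and the study annotated the first of them, under those names, as its adult list. The direction of each result below rests on the labels of the lists, and the main shares with the lists exchanged are given at the end.

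The sequences at the summits of some of the strongest sites without a counterpart show what the lists hold at the places where they differed. All are from the RefSeq GRCm38 (mm10) genome, plus strand, 5′ to 3′, 101 bases centred on the summit, in lower case. Capitals mark a match to the NF-κB consensus, or to the AP-1 motif TGANTCA. The first 3 are adult sites without an aged/anti-IL-17A/F peak, and the stronger sites at Srebf1 and Plk3 are not shown because their windows reach into untranslated sequence.
Gm41177, chr14:65150053-65150153: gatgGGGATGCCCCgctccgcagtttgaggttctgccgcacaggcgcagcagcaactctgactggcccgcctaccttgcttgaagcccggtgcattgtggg
Skint1, chr4:112006073-112006173: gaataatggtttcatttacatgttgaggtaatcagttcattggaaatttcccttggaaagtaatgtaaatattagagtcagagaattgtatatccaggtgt
Dapp1, chr3:138003266-138003366: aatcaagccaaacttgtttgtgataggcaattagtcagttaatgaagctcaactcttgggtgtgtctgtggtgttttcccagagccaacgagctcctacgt
The next 3 are aged/anti-IL-17A/F sites without an adult peak, and in 2 of them an NF-κB and an AP-1 match stand close together.
B230209E15Rik, chr7:61481267-61481367: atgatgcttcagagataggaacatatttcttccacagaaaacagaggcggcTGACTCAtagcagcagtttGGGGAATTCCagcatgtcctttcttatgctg
Hsf2bp, chr17:31965810-31965910: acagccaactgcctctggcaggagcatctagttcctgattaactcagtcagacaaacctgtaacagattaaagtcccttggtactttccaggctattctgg
Evc2, chr5:37522521-37522621: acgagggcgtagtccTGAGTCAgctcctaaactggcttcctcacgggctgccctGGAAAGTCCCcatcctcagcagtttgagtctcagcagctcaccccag
The strongest peak of both lists lay at Nfkbia, which encodes IκBα. Its 101 bases at the adult summit held no match to either motif.
Nfkbia, chr12:55492689-55492789: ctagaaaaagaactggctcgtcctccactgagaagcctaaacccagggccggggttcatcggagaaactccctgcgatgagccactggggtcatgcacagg
Shorter stretches of 30 bases show the NF-κB match in peaks at untranslated or nearby sequence. Cpt2, Traf3ip2 and Traf6 had an adult peak only, and Tnip1 had one in both lists.
Cpt2, chr4:107923498-107923527: cggtggctgaGGGAGTTCCCgagcaagcag
Traf3ip2, chr10:39613010-39613039: ccagaagcccGGGGCATTCCtcacagtttc
Traf6, chr2:101679348-101679377: tttggcttcaGGGGAACTCCggatgagact
Tnip1, chr11:54956102-54956131: cacgcccctgGGAAAGTCCCcggagaccga

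In all, 3379 of the 8525 adult peaks had no aged/anti-IL-17A/F peak (39.6%, interval 38.6 to 40.7). In the other direction, 864 of the 6014 aged/anti-IL-17A/F peaks had no adult peak (14.4%, interval 13.5 to 15.3). With the strongest 6014 peaks of each list, 1509 adult peaks (25.1%, interval 24.0 to 26.2) and 1490 aged/anti-IL-17A/F peaks (24.8%, interval 23.7 to 25.9) had no counterpart. Both counts must be nearly equal once the lists have the same length, so the second pair of shares does not say that one condition had fewer sites than the other. The limit of the strongest 6014 fell within a tie, since adult ranks 6014 and 6015 both had a −log10 q of 9.27 and a fold enrichment of 2.68.

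The adult sites without a counterpart were weak ones. None of the 1000 strongest adult peaks was without an aged/anti-IL-17A/F peak (interval 0 to 0.383%). Among the 2000 strongest, 17 were without one (0.85%, interval 0.531 to 1.36), and among the 3000 strongest, 132 were (4.40%, interval 3.72 to 5.19). By decile of strength, the share went from 0.939% in the second decile to 36.5% in the fifth and 79.9% in the weakest. The aged/anti-IL-17A/F list had the same order with lower shares, 0.166% in the second decile, 7.82% in the fifth and 41.3% in the weakest. Median fold enrichment, the signal over the local background, was 3.06 in adult peaks without a counterpart and 4.39 in shared adult peaks. Their median width was 375 bp against 517 bp.

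**Figure D1:**
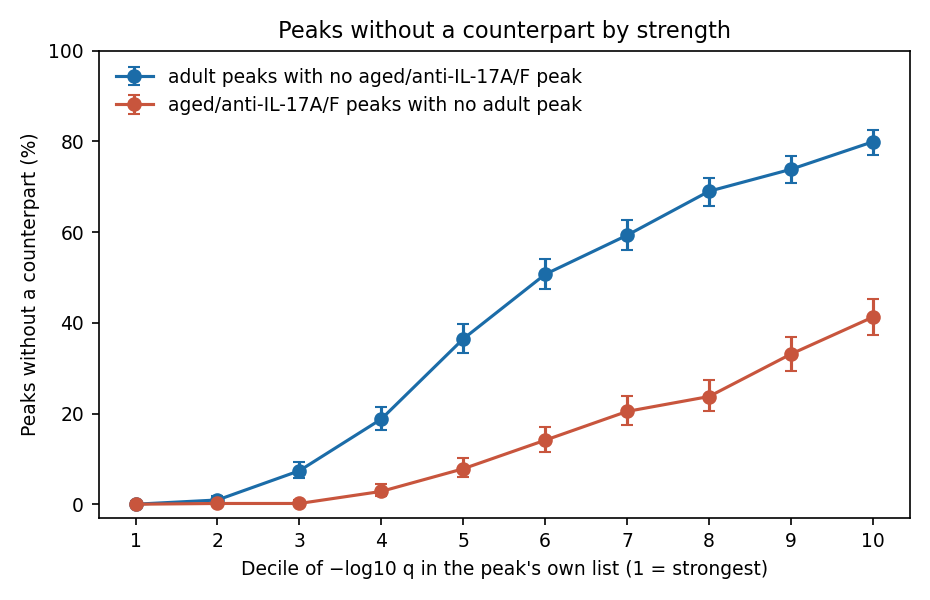
Share of peaks without a counterpart (%, vertical axis) by decile of −log10 q within each list (horizontal axis, 1 is the strongest). Points are shares and bars 95% Wilson intervals, and both lines start at 0, with the adult line reaching 79.9% and the aged/anti-IL-17A/F line 41.3% in the weakest decile.

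Most adult sites without a counterpart lay far from any aged/anti-IL-17A/F peak. The nearest one was within 500 bp for 141 of the 3379 sites (4.17%), farther but within 10000 bp for 757 (22.4%), and beyond that for 2481 (73.4%), with a median distance of 37610 bp. In the other direction the counts were 52 (6.02%), 223 (25.8%) and 589 (68.2%) of 864, with a median of 27587 bp. Of the 3379 adult sites, 377 had a peak in the aged/IgG control list (11.2%, interval 10.1 to 12.3), against 3502 of the 5146 shared adult peaks (68.1%, interval 66.8 to 69.3). Among the strongest 6014 it was 261 of 1509 (17.3%, interval 15.5 to 19.3) against 3349 of 4505 (74.3%, interval 73 to 75.6). The aged/IgG control list is the shortest of the 3, and median −log10 q was 8.78 in sites without a counterpart against 22.6 in shared ones. The contrast was not made at like strength.

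Adult peaks within 1 kb of a transcription start site (TSS) were without a counterpart more often than others when strength was left aside. The share was 44.2% of 3146 peaks within 1 kb (interval 42.5 to 46.0), against 37.6% at 1 to 10 kb, 36.3% at 10 to 50 kb and 37.2% beyond 50 kb. At like strength the classes were close together. In the middle quintile of −log10 q the 4 shares were 42.6%, 44.4%, 42.8% and 45.9%, in the same order, with overlapping intervals. Aged/anti-IL-17A/F peaks without an adult peak made up 13.2% of peaks within 1 kb of a TSS (interval 11.8 to 14.8) and 18.1% of those beyond 50 kb (interval 15.7 to 20.9). In the middle quintile of that list, where the classes were farther apart, they made up 4.93% of peaks within 1 kb of a TSS (interval 3.10 to 7.75) and 19.1% of peaks beyond 50 kb (interval 14.2 to 25.2). In the weakest quintile the shares were 34.9% and 43.1%, with overlapping intervals.

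NF-κB consensus matches, counted on both strands within 201 bp around the summit, were fewer in adult peaks without a counterpart. They were found in 522 of 3379 such peaks (15.4%, interval 14.3 to 16.7) and in 1905 of 5146 shared peaks (37.0%, interval 35.7 to 38.3). In windows of the same length 2000 bp to either side the share was 2.25% and 2.14%. Part of that gap went with strength, as the consensus was found in 53.6% of shared adult peaks of the strongest quintile and in 13.2% of those of the weakest. A smaller gap was left within quintiles, 25.6% against 36.1% in the second, 20.5% against 28.7% in the third and 16.0% against 21.8% in the fourth, with intervals that did not overlap in these 3. In the weakest quintile the shares were 10.3% and 13.2%, with overlapping intervals. Strength was not fully equal within a quintile. In the second, for example, 7.39% of the stronger decile and 18.8% of the weaker one had no counterpart.

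The aged/anti-IL-17A/F peaks without an adult peak had the reverse order in the second, the third and the fourth quintile. In the third quintile of their list, 62 of 132 held the consensus (47.0%, interval 38.7 to 55.4), against 32.9% of 1071 shared peaks. In the second quintile 11 of only 18 did (61.1%, interval 38.6 to 79.7), against 41.4%, and these intervals overlapped. In the fourth the shares were 28.2% and 22.5%, again with overlapping intervals, and in the weakest the order turned, with 14.3% against 18%. Over all strengths the share was 24.7% against 36.6%, and 447 of the 864 unshared peaks lay in the weakest quintile.

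**Figure D2:**
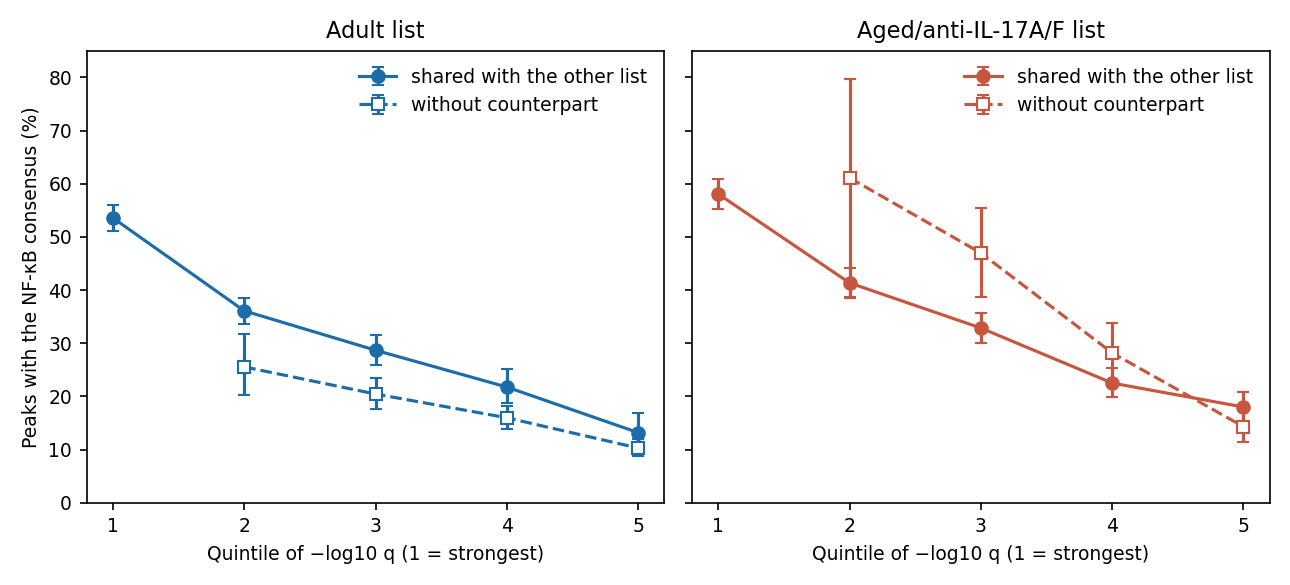
Share of peaks with the NF-κB consensus within 201 bp around the summit (%, vertical axis) by quintile of −log10 q (horizontal axis, 1 is the strongest), for shared peaks (filled circles) and peaks without a counterpart (open squares), with 95% Wilson intervals. Strata of fewer than 18 peaks are left out. In the third quintile the open squares are at 20.5% in the adult list and 47.0% in the aged/anti-IL-17A/F list, below and above the filled circles.

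AP-1 matches, spelled TGANTCA and found in about 6% of flanking windows, were in 11.4% of adult peaks without a counterpart and in 14.4% of shared ones. Within quintiles the intervals overlapped in the second to the fourth, and in the weakest the shares were 8.31% and 13.2%. Of the 18 aged/anti-IL-17A/F peaks of the second quintile without an adult peak, 9 held the motif (interval 29.0 to 71.0%), against 15.7% of shared peaks. Over all of them the shares were 15.0% without an adult peak and 14.3% shared, and in the third, the fourth and the weakest quintile the intervals overlapped. The GC box GGGCGG, a promoter element bound by Sp1, was rarer in the third quintile of aged/anti-IL-17A/F peaks without an adult peak than in shared ones, 11.4% against 21.2%. The fourth quintile had 13.9% against 28.3%. Adult peaks had the other order over all strengths, 28.7% without a counterpart (interval 27.2 to 30.3) against 24.1% shared (interval 23 to 25.3). In their second quintile the shares were 28.7% and 20.04%, and in the third, the fourth and the weakest the intervals overlapped. Median GC content in the fourth quintile of aged/anti-IL-17A/F peaks was 51.7% without an adult peak and 55.7% shared. In the second quintile of adult peaks it was 53.7% without a counterpart and 53.2% shared. Whether base composition accounts for these shares was not tested.

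The 20 strongest adult sites without an aged/anti-IL-17A/F peak had adult ranks from 1283 to 2039 and −log10 q from 29.1 to 43.6. An NF-κB match was found in 7 of them and an AP-1 match in 0, and 8 lay within 1 kb of a TSS. The shares were 15.4% and 11.4% over all 3379 such sites, and 25.6% and 15.7% in those of the second quintile, which are nearer in strength. In the aged/IgG control list, 9 of the 20 had a peak, against 11.2% of all such sites. Genes are named here by the nearest TSS, which need not be the gene that a site regulates. The strongest, 473 bp long, lay at −22211 bp from the TSS of the noncoding RNA gene Gm41177, with a fold enrichment of 6.66, and its nearest aged/anti-IL-17A/F peak was 263950 bp away. It did have a peak in the aged/IgG control list.

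The second strongest was a peak at −163 bp from the TSS of Skint1, which epithelial cells of the skin and thymus need for the selection of the γδ T cells of the epidermis, at chr4:112005895-112006318 with a fold enrichment of 6.31. Srebf1, which encodes a regulator of lipid synthesis, had a peak with a fold enrichment of 5.35 at 86 bp from a TSS, while another Srebf1 site 9617 bp away did have an aged/anti-IL-17A/F peak. Cpt2, for a mitochondrial enzyme of fatty acid oxidation, had one of 5.53 in its 5′ UTR, at chr4:107923229-107923722. Plk3, for a stress-response kinase, had a peak of 5.71 at −164 bp, and Mapk8, which encodes the kinase JNK1, one of 5.41 at −123 bp. Bmf, which encodes a pro-apoptotic protein of the BCL2 family, had one of 5.71 at −4931 bp. Psme3, for a proteasome activator, had one of 5.05, but an aged/anti-IL-17A/F peak began only 21 bp from its edge. The aged/IgG control list had a peak at the Skint1 and Srebf1 sites. At the Cpt2, Plk3, Mapk8, Bmf and Psme3 sites it had none.

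The 10 strongest aged/anti-IL-17A/F sites without an adult peak had ranks from 657 to 2184, and none lay within 1 kb of a TSS. An AP-1 match was found in 7 and an NF-κB match in 4, and those 4 held both. Over all 864 such peaks the shares were 15.0% for AP-1 and 24.7% for NF-κB, and the 10 are among the peaks of the strongest quintiles counted above. The strongest of them, chr7:61481069-61481538, had a fold enrichment of 7.56 and lay 134024 bp from the start of the noncoding RNA gene B230209E15Rik, with the nearest adult peak 2273699 bp away. A second site of the same gene had 4.67. In the aged/IgG control list, 6 of the 10 had a peak, against 102 of all 864 aged/anti-IL-17A/F peaks without an adult peak (11.8%, interval 9.82 to 14.1) and 3503 of the 5150 shared ones (68.0%, interval 66.7 to 69.3). Those shares cover all strengths, whereas the 10 were the strongest. Zfpm1, for a cofactor of GATA factors, had a site with 4.45 in an intron, and Mir29b-1, a microRNA gene, one with 4.13 at −2531 bp.

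At shared sites the fold enrichment was compared for 5032 peaks that overlapped one to one. The median log2 ratio of aged/anti-IL-17A/F over adult was −0.15 (quartiles −0.39 and 0.09), so differences are given after subtracting this median. By this measure 252 pairs (5.01%) were at least 1.5 times higher and 295 (5.86%) at least 1.5 times lower in aged/anti-IL-17A/F. Without the subtraction the counts were 102 and 596. Summits were a median of 30 bp apart.

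The lowest ratio was in an intron of Rab44, with 6.71 in adult and 2.42 in aged/anti-IL-17A/F (centred log2 ratio −1.32). Nbeal2, whose product is needed for platelet granules, followed with 10.02 and 3.82 in its 5′ UTR (−1.24). A site in an intron of Nectin4, for an adhesion molecule of epithelia, had 8.87 and 3.38 and is nearest to the TSS of Arhgap30. The highest ratio was in an intron of Synj2, nearest to the noncoding RNA gene Gm35525, with 3.28 and 7.0 (1.25). Fhit, a tumor suppressor gene, had 3.64 and 7.49 at 328 bp from its TSS (1.19). These were the extremes of 5032 pairs, and no spread between mice is at hand to set them against.

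**Figure D3:**
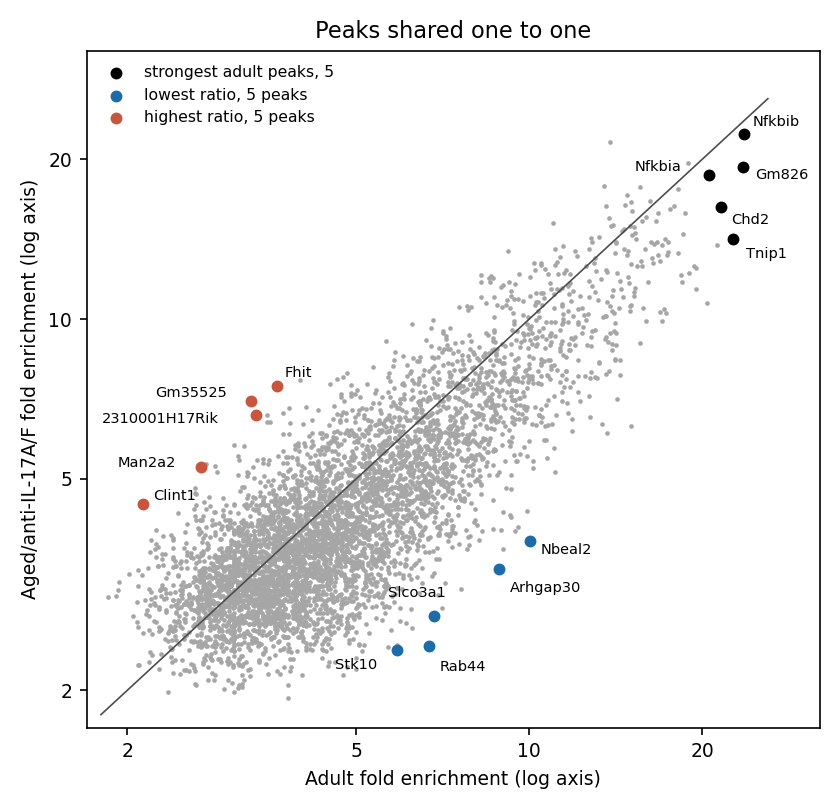
Fold enrichment in adult (horizontal, log axis) and aged/anti-IL-17A/F (vertical, log axis) for the 5032 peaks shared one to one. Each point is a peak and the line marks equal values, with the 5 strongest adult peaks in black and the 5 lowest and 5 highest ratios in blue and red; most points lie below the line, as the median log2 ratio of −0.15 says.

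At the level of genes, 4838 protein-coding genes were nearest to an adult peak, and 1545 of them (31.9%) had no aged/anti-IL-17A/F peak. In the other direction the share was 356 of 3649 genes (9.76%). With the strongest 6014 peaks of each list the counts were close to each other, 714 genes with an adult peak alone and 677 with an aged/anti-IL-17A/F peak alone. Of the 2436 genes with at least 1 adult site without a counterpart, 920 had an aged/anti-IL-17A/F peak elsewhere. The 1545 genes include a few whose adult peaks were all shared, but with a peak assigned to another gene. A gene with a single adult peak was without one in 41.0% of 3418 cases, a gene with 3 peaks in 5.65% of 301 and a gene with at least 4 peaks in 0.781% of 256. Lists of genes are read below against 40.0% of the 7336 adult peaks at all protein-coding genes, and 25.2% among the strongest 6014. Median −log10 q over all protein-coding adult peaks was 13.6, and because the share goes with strength the median of a list is given where it was well above that. Values given for a gene below are fold enrichments of a peak, adult first where both lists had one.

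Of the 10 adult peaks at the 5 genes of NF-κB subunits, 1 was without a counterpart (interval 1.79 to 40.4%), an intron site of Rel with a fold enrichment of 2.71. Among the strongest 6014 it was 0 of 8 (interval 0 to 32.4%), and both intervals hold the share of all protein-coding genes. In the other direction 0 of 9 aged/anti-IL-17A/F peaks at these genes had no adult peak. Median −log10 q of the 10 adult peaks was 52.6. Rela, for p65, had a fold enrichment of 13 in both lists at its TSS. Nfkb2 had 18.9 and 19.6, and Nfkb1 had 7.63 and 6.25.

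Among IκB proteins and ubiquitin-editing inhibitors, which hold NF-κB in check, 5 of 36 adult peaks were without a counterpart (13.9%, interval 6.08 to 28.7), and the 10 genes with an adult peak all had an aged/anti-IL-17A/F peak. In the other direction 3 of their 34 aged/anti-IL-17A/F peaks had no adult peak. Median −log10 q was 42.0. Nfkbia had 20.6 in adult and 18.7 in aged/anti-IL-17A/F at its strongest peak, and Nfkbib 23.6 and 22.3. Tnip1, for a partner of the ubiquitin-editing enzyme A20, had 22.6 and 14.1, a centred log2 ratio of −0.53. Tnfaip3, which encodes A20, had the opposite order, 13.8 and 21.6 (0.79), at a site 135 bp from a TSS.

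Of 25 adult peaks at genes of IL-17 receptor signaling, 9 were without a counterpart (36.0%, interval 20.2 to 55.5), and 3 of 17 among the strongest 6014, with a median −log10 q of 19.2. Both shares are near those of all protein-coding genes. In the other direction 3 of 21 aged/anti-IL-17A/F peaks at these genes had no adult peak, against 734 of 5133 at all protein-coding genes. Traf3ip2, for Act1, had a single adult peak, chr10:39612891-39613401 in its 5′ UTR, with a fold enrichment of 3.18, and the nearest aged/anti-IL-17A/F peak was 285538 bp away. The aged/IgG control list did have a peak there. Traf6 had 2.68 at 964 bp from its TSS, Il17rc, for a receptor chain, 2.78 at 718 bp, and Tab3, for a partner of the kinase TAK1, 3.33 at 144 bp, each without a counterpart and each from a weak peak. The receptor gene Il17ra kept its peak, with 2.91 and 2.41. Ikbkb, for an IκB kinase, had a peak in the aged/anti-IL-17A/F list alone, with 3.21 at −5994 bp. Traf2 had 17.4 and 13.4 at its strongest site, and Map3k7, for TAK1, 11.7 and 9.87.

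Known IL-17 targets of keratinocytes had 10 adult peaks, of which 4 were without a counterpart, and a median −log10 q of 30.4. In the other direction it was 1 of 8 aged/anti-IL-17A/F peaks. Il6 had 3.07 at 64 bp from its TSS and S100a9, for a subunit of the antimicrobial protein calprotectin, 3.45 at −12971 bp, both in adult alone. Cxcl1, a neutrophil chemokine, had 8.18 and 7.76, and Cxcl5, another, had 4.58 and 5.29. Cebpb, for a transcription factor induced by IL-17, had a peak in the aged/anti-IL-17A/F list alone, with 2.43. Over cytokines and chemokines as a whole, 5 of 22 adult peaks were without a counterpart (22.7%, interval 10.1 to 43.4), with a median −log10 q of 20.3. In the other direction it was 1 of 18 aged/anti-IL-17A/F peaks. Il1b had 3.03 at −36575 bp and Il1rn, for the IL-1 receptor antagonist, 2.31 at −102 bp, both in adult alone and both from weak peaks. Il23a, for a subunit of the cytokine IL-23, had 3.40 at −150 bp in aged/anti-IL-17A/F and no adult peak, and the aged/IgG control list had a peak there.

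Genes of the suprabasal layers, cornified envelope and desmosomes, which build the barrier, had the highest share of sites without a counterpart among the 14 lists. It was 27 of 56 adult peaks (48.2%, interval 35.7 to 61.0), and among the strongest 6014 it was 16 of 40 (40.0%, interval 26.3 to 55.4, against 25.2% for all protein-coding genes). Median −log10 q was 13.3, close to that of all genes. In the other direction 8 of its 37 aged/anti-IL-17A/F peaks had no adult peak, the same count as at basal keratinocyte and adhesion genes (8 of 37), against 734 of 5133 at all protein-coding genes. The list was singled out as the highest of 14, and the interval over all peaks holds the share of all protein-coding genes. It counts peaks and not genes, and Perp held 5 of the 27, Abca12 4 and Pkp1 4. Among the genes with an adult peak, 18 of 21 had an aged/anti-IL-17A/F peak, and Krt10, Krt2 and Cdsn did not. Dsp, for desmoplakin, had peaks in both lists, but its 1 adult site and its 3 aged/anti-IL-17A/F sites did not overlap. Krt10, a keratin of differentiating cells, had 3.33 at −1801 bp, Krt2 had 3.53 at −8406 bp, and Cdsn, for corneodesmosin, had 2.58 at −2269 bp. Among these only the Krt2 site had a peak in the aged/IgG control list. Dsc3, for a desmosomal cadherin, had a peak in the aged/anti-IL-17A/F list alone.

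Within several of these genes some sites were shared and others not, and 4 are described that were chosen after their values were seen. Perp, for a desmosomal protein, had 9 adult peaks, of which 5 were without a counterpart, with fold enrichments of 2.83 to 3.95. Its strongest site, 24037 bp downstream of the TSS, had 7.53 in adult and 6.06 in aged/anti-IL-17A/F. Krtdap, for a secreted protein of differentiating keratinocytes, had its promoter site at −189 bp in adult alone, with 4.14, while the site at −1401 bp had 5.74 and 4.13. Pkp1, for plakophilin 1, was without 4 of its 8 adult sites but had 4.04 and 3.42 at its TSS, and a site in aged/anti-IL-17A/F alone with 3.19. Abca12, for a lipid transporter of the cornified layer, was without 4 of 5, among them the site at −83 bp with 3.54, and kept one with 4.54 and 3.37.

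**Figure D4:**
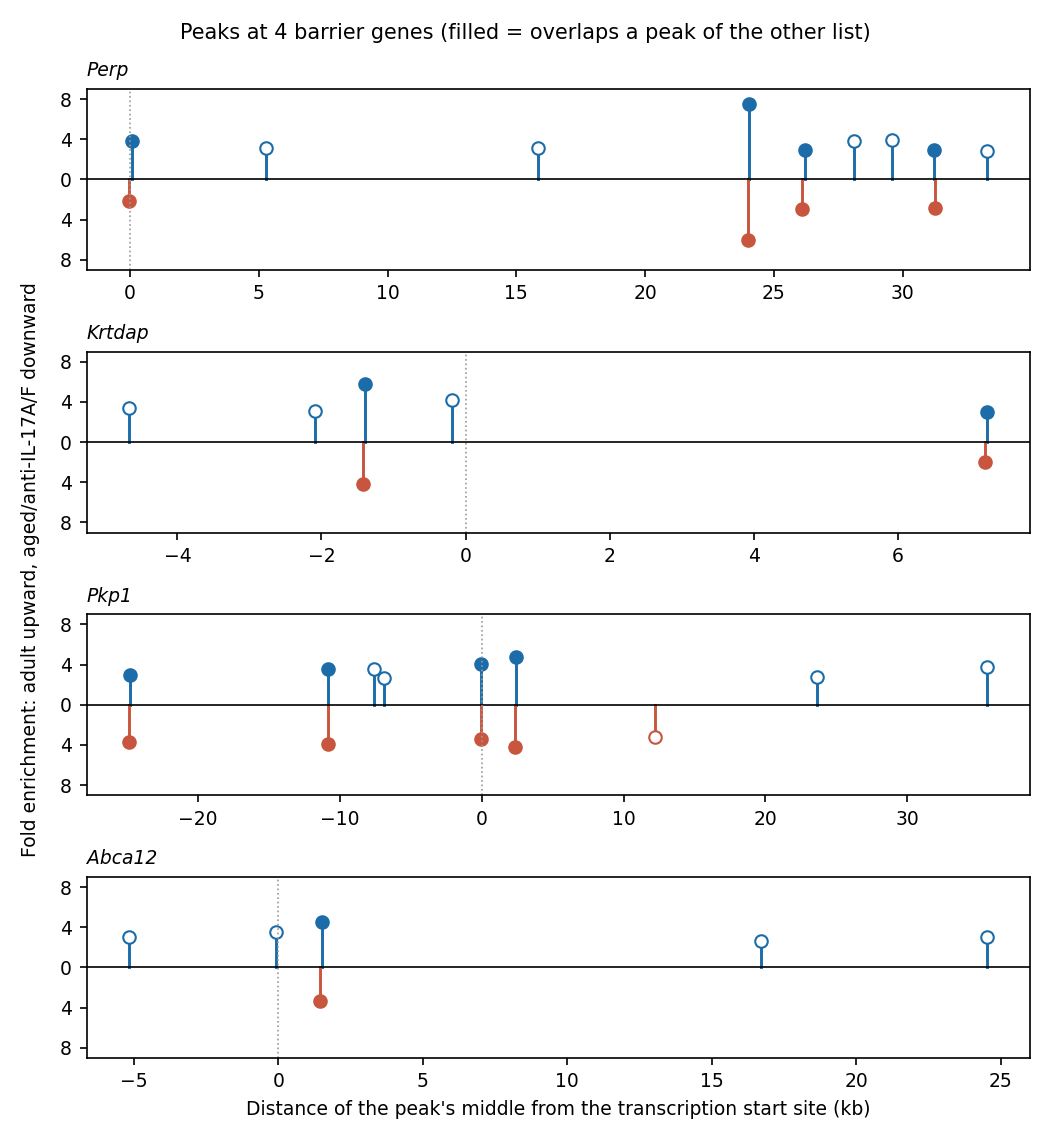
Fold enrichment of every peak assigned to Perp, Krtdap, Pkp1 and Abca12 against the distance of its middle from the TSS (kb), adult upward in blue and aged/anti-IL-17A/F downward in red. Filled points overlap a peak of the other list and open points do not; 5 of 9 adult points are open at Perp and 4 of 5 at Abca12, while the tallest adult point of each gene is filled.

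Basal keratinocyte and adhesion genes had 15 of 44 adult peaks without a counterpart (34.1%, interval 21.9 to 48.9). Areg, for the EGF receptor ligand amphiregulin, had 4.51 at −25466 bp and Itga6, for a hemidesmosomal integrin, 3.69 in an intron, both in adult alone. Dst had peaks in aged/anti-IL-17A/F alone. Among epidermal transcription factors it was 25 of 67 (37.3%, interval 26.7 to 49.3). In the other direction 6 of their 50 aged/anti-IL-17A/F peaks had no adult peak. Cebpa, for a factor of differentiation, was without 4 adult sites at 10085 to 27103 bp downstream of its TSS, with fold enrichments of 2.95 to 3.41.

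AP-1 subunit genes, whose products often share sites with NF-κB, had 7 of 44 adult peaks without a counterpart (15.9%, interval 7.93 to 29.4) and a median −log10 q of 22. In the other direction 4 of their 40 aged/anti-IL-17A/F peaks had no adult peak, near the 734 of 5133 at all protein-coding genes. Batf3 and Mafk had adult peaks alone. In the Notch pathway, which drives keratinocyte differentiation, 11 of 29 adult peaks were without a counterpart (37.9%, interval 22.7 to 56.0), and in the other direction 3 of 21. Adam10, Dll1, Jag2 and Notch3 had adult peaks alone, with fold enrichments of 2.18 to 2.88, and Numb, for a Notch inhibitor, had one in aged/anti-IL-17A/F alone with 3.50. Survival and apoptosis genes had 7 of 25 (28.0%, interval 14.3 to 47.6) and 3 of 20 in the other direction, with Pmaip1 in adult alone and Traf1 in aged/anti-IL-17A/F alone. Genes of MHC class I and antigen processing had 1 of 10, with a median −log10 q of 109, and also 1 of 10 in the other direction. The adult site lay 2299 bp from the TSS of H2-T23, in an intron of A930015D03Rik, with a fold enrichment of 4.37. H2-T23 belongs to a family of similar genes, and how well reads can be placed there was not measured. Psmb10 had a peak in the aged/anti-IL-17A/F list alone.

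**Figure D5:**
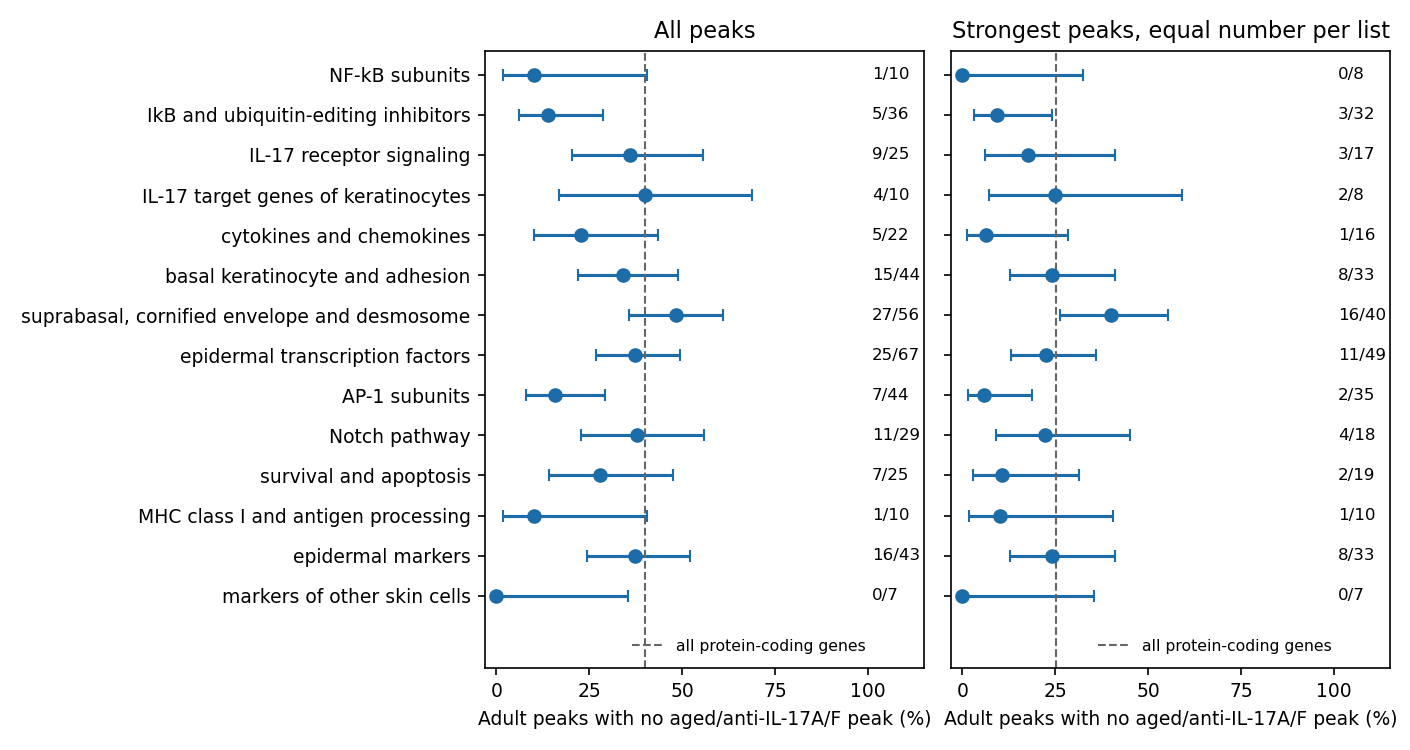
Adult peaks without an aged/anti-IL-17A/F peak (%, horizontal axis) in 14 gene lists (vertical axis), for all peaks (left) and the strongest 6014 of each list (right), with 95% Wilson intervals, counts at the right edge and a dashed line at all protein-coding genes. The suprabasal list lies farthest right, at 48.2% and 40.0%, and the lines stand at 40.0% and 25.2%.

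Peaks at markers of epidermal cells were present in both lists, at 13 of the 15 marker genes in adult and at 11 after the blockade, and 16 of their 43 adult peaks were without a counterpart (37.2%, interval 24.4 to 52.1). Of 23 markers of other skin cells, 5 had a peak in each list, namely Pecam1, Cd74, Cd2, Pdgfra and Itgam, and none of their 7 adult peaks was without a counterpart (interval 0 to 35.4%), with a median −log10 q of 24.1. In the other direction 7 of 35 aged/anti-IL-17A/F peaks at epidermal markers and 0 of 7 at markers of other cells had no adult peak. A p65 peak at a marker gene is not a level of its expression, and the cell types in each pool were not measured.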

How the data were processed

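p65 ChIP–seq peak lists of adult and aged/anti-IL-17A/F epidermal cells were analysed, 1 pool of 4 mice each. According to the methods, the authors trimmed reads with Trimmomatic, aligned them to mm10, merged and deduplicated the mice of a condition, downsampled each pool to the same read number and called peaks with MACS2 (q value 0.01). Pooling removes the variation between mice, and equal read numbers do not equalise the efficiency of the immunoprecipitation. Each deposited peak has a score, a summit offset, a ratio to local background (fold enrichment), and its p-value and q-value as −log10. Read depth behind a peak is unknown. The 3 inputs were not analysed here, and their use in peak calling was not stated in the sources used here. The aged/IgG control list served only to mark sites.

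Overlaps, with ties in rank broken by position, were computed in Python 3.11.15 with numpy 2.4.6, pandas 2.3.3 and pysam 0.24.0, and the overlap code was tested on simulated data. All peaks fell inside the GRCm38 chromosomes. Genes were assigned by the nearest TSS of RefSeq, with 255 of 259 list symbols matched. The named sites were the 20 strongest adult and 10 strongest aged/anti-IL-17A/F peaks without a counterpart, the 5 strongest shared peaks, the 5 largest ratios in each direction and list genes with peaks on one side alone. Other sites were chosen after their values were seen. The members and lists were chosen with earlier results of these data known. Alternatives covered the overlap rule, the q threshold, the ranking, the TSS limit and the motif window, and the 4 with the lists exchanged were chosen after seeing the data. No significance test was made, since each condition has 1 pool.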

Additional observations from a re-analysis of the deposited data

How the results depend on the processing

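The share of adult peaks without an aged/anti-IL-17A/F peak (39.6%) was 42.4% with an overlap of at least 50% of both peaks, 38.0% when peaks up to 500 bp apart counted as shared, 35.6% with both lists at −log10 q of at least 10, and 22.6% with only the adult list at that limit. The reverse share (14.4%) was 18.4%, 13.5%, 11.9% and 6.05% under the same settings. Among the strongest 6014 peaks, the 50% overlap gave 27.8% in both directions, ranking by fold enrichment 27.0% and 26.7%, and the strongest 3000 peaks 20.1% and 20%. The number of genes with an adult peak alone (1545) was 714 with the strongest 6014. The share of adult peaks without a counterpart that held the NF-κB consensus (15.4%) was 10.7% within 50 bp of the summit, 19.6% within 200 bp and 20.8% with the strongest 6014. With the lists exchanged, an alternative chosen after seeing the data, the first share was 14.4%, the genes 356 and the consensus share 24.7%. No paired analysis was possible because each condition is 1 pool and the results come from no test. The depth behind a peak and the spread between mice are unknown, so that a peak missing near the calling threshold cannot be told from a small difference in signal.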

Other observations

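The genes with the most adult sites without a counterpart were Sik1, for a salt-inducible kinase, with 8 of 15, and Golph3, for a Golgi protein, with 7 of 13, and each had 7 aged/anti-IL-17A/F peaks. Socs3, an inhibitor of cytokine signaling, and Zfp36l1, for a protein that binds AU-rich mRNA, each lacked 5 of 6. Arid3b and Wsb1 had 4 adult peaks each and no aged/anti-IL-17A/F peak. In the other direction, which is the ranking if the lists are exchanged, the highest count was 3, at Dsp, Ust, Cpxm2 and Mex3c.

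By chromosome, the share of adult peaks without a counterpart ran from 35.6% on chromosome 19 to 43.6% on chromosome 5 among the autosomes. Shares by chromosome were not computed for the other direction. On chromosome X it was 47.7% of 65 peaks, with an interval of 36.0 to 59.6 that holds the share of all adult peaks.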
